A study of Mus musculus with 16 samples.

Results

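Ctse, Cd55, Snrpe, Ptprv and Lad1 are 5 genes on mouse chromosome 1 whose transcript levels set apart the B6 mice of a pair of Foxp3 reporter lines. They were chosen by name from among 19531 genes represented on the array, after the difference between the reporter lines had been seen in these data. Each was represented by the probe set that the platform annotation gives to that symbol alone, of which there was 1 per gene. All 5 lay above the filter on low values (log2 intensity 6.06) on each of the 16 arrays and were among the 12798 genes tested. Because the difference between the reporter lines was the reason for choosing these genes, it is described for them below without a test.

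Splenic CD4+ T cells of males aged 6 weeks were profiled on the Mouse Gene 1.0 ST array of Affymetrix. Each mouse line carried GFP in the Foxp3 gene. In the line called fusion here (Foxp3-GFP in the labels) GFP is joined to the Foxp3 protein. In the line called IRES here (Foxp3-IRES-GFP) GFP comes as a protein of its own from the shared transcript. Each allele was examined in NOD mice, which are prone to autoimmune diabetes, and in B6 mice. From every line, regulatory T cells (Treg) were sorted as CD3+CD4+GFP+ cells and conventional T cells (Tconv) as CD3+CD4+GFP- cells, each sorted again for purity. This gave 8 groups of 2 arrays, namely fusion and IRES, in Treg and Tconv, of NOD and B6 mice. No group lacked a reporter allele. GFP marks cells that transcribe Foxp3 at the time of the sort. The labels do not say whether both arrays of a group stand for different mice or for pools, so p-values measure only spread between arrays, and that spread may be technical.

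Treg are the CD4+ T cells that hold immune responses in check, and their identity rests on the transcription factor Foxp3. Reporter alleles let them be sorted alive, and an allele made in one strain is moved to another by repeated crossing, so that lines can also differ at sites other than the reporter. The 5 genes have unrelated products. Cd55 encodes decay-accelerating factor, a surface protein that limits complement activation. Ptprv encodes a receptor-type protein tyrosine phosphatase known from mouse bone and testis, and RefSeq annotates it in GRCm38.p6 as a transcribed pseudogene. Ctse encodes cathepsin E, an aspartic protease of endosomes. Snrpe encodes the Sm protein E of the core of spliceosomal ribonucleoproteins. Lad1 encodes ladinin 1, an anchoring filament protein of epithelial basement membranes.

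In the RefSeq order of tested genes along chromosome 1 the 5 run Cd55, Ctse, Snrpe, Ptprv, Lad1, with 11, 22, 14 and 12 other tested genes between successive members. No 2 of them are neighbours. Counting annotated genes, Cd55 lies between Cd55b and Zp3r, Ctse between Avpr1b and Rab7b, and Snrpe between Sox13 and Zc3h11a. Ptprv lies between Lgr6 and Ptpn7, and Lad1 between Tnni1 and Tnnt2. The genome build behind the array annotation is not given in the sources used here, so coordinates are given only for the promoter sequences that follow.

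Promoter sequences were held for 3 of the 5 genes, Cd55, Snrpe and Lad1, and are shown because they let the starts of 3 genes with different patterns be compared. They are the 250 bases before the RefSeq start, in GRCm38.p6, at chr1:130462745-130462994 on the minus strand for Cd55, chr1:133610281-133610530 on the minus strand for Snrpe and chr1:135818348-135818597 on the plus strand for Lad1. Each is written 5′ to 3′ along the gene, with capitals marking matches to the motifs named after the sequences.

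Cd55: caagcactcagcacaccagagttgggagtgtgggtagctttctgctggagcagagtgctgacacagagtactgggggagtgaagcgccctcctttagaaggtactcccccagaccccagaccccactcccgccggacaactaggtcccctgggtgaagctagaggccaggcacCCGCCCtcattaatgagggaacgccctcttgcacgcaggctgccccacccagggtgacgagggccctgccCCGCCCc

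Snrpe: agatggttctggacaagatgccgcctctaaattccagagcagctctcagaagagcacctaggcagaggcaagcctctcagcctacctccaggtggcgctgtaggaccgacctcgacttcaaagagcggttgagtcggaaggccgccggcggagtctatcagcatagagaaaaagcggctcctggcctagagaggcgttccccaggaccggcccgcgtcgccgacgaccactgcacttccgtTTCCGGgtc

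Lad1: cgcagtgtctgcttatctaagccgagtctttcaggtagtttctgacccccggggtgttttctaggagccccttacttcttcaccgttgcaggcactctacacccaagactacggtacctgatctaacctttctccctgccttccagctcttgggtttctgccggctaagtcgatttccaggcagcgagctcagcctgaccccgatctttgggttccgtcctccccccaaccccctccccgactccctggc

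The windows, with a further 50 bases past the start, were searched on both strands for the forkhead core GTAAACA, the STAT motif TTCNNNGAA, the ETS core CCGGAA, the GC box GGGCGG and the TATA box TATAAA. No printed matches overlap. The Cd55 window held 2 GC boxes, both in capitals above, and 35.7% of 32851 promoters in the table held at least 1. The Snrpe window held 3 ETS cores, of which 1 lies in the printed stretch, and 14.9% of promoters held at least 1. None of the 5 motifs was in the Lad1 window. The forkhead core, which was in 3.65% of promoters, was in none of the 3 windows. The STAT motif was in 8.3% of promoters and the TATA box in 13.6%, and these 3 windows held neither. GC content of the printed stretches was 64% for Cd55, 60.8% for Snrpe and 57.6% for Lad1. These 3 promoters thus shared none of the motifs searched.

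The arrays were alike in level, with median intensities between 86.7 and 99.0, and the SD over genes of the difference (log2) between arrays of 1 group ran from 0.18 to 0.25. Foxp3 checked the sort. Its log2 intensity was 11.37 to 12.16 on the 8 Treg arrays, against 7.01 to 8.18 on the 8 Tconv arrays. The difference was 4.31 ± 0.11 (SE, limma adjusted p = 1.34e-15), so every array matched its cell type label. Foxp3 does not check the strain or the reporter line of an array. Lists of markers of B cells, myeloid cells, dendritic cells, CD8 T and NK cells, red cells and platelets, T cells and Treg held 34 tested genes. Limma called 0 of them between fusion and IRES in B6 Treg, B6 Tconv, NOD Treg and NOD Tconv, where 0.344%, 0.0313%, 0.102% and 0.0469% of all genes were. At an unadjusted p under 0.05 there were 2 in B6 Treg, 0 in B6 Tconv and 2 in NOD Treg, beside 9.15%, 1.64% and 4.81% of all genes. In NOD Tconv there were 9 of 34, beside 3.07% of all genes. Of the 34, 16 were called between Treg and Tconv, 11 between NOD and B6 Treg and 8 between NOD and B6 Tconv, T cell and Treg genes included. The shares of all genes were 28.6%, 21% and 15.9%. On the array 6 of 9 B cell markers, Cd79a and Ms4a1 among them, were below the filter. One array differed in these markers. NOD fusion Tconv replicate 1 had a summed intensity of 1151 over the 10 dendritic cell and MHC class II genes, against 591 on the other array of its group, and 626 against 390 over the B cell genes. The part of these cells in the results was not tested, and values without that array are given where it changed a call.

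In B6 mice 4 of the 5 genes were higher in fusion than in IRES Treg and 1, Lad1, was lower, and the differences ran from 1.21 to 3.20 in size on the log2 scale. In B6 Tconv, Ctse and Snrpe differed as much as in Treg, Cd55 and Ptprv less, and Lad1 by -0.02. In NOD mice none of the 5 differed by more than 0.32 in either cell type. Ctse had the largest fusion minus IRES difference of all 12798 genes in both B6 cell types, and in B6 Treg the others ranked 2nd (Cd55), 6th (Snrpe), 10th (Lad1) and 11th (Ptprv) by size. RNA came from sorted populations, so a lower share of cells with a transcript and less transcript per cell cannot be told apart.

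**Figure D1:**
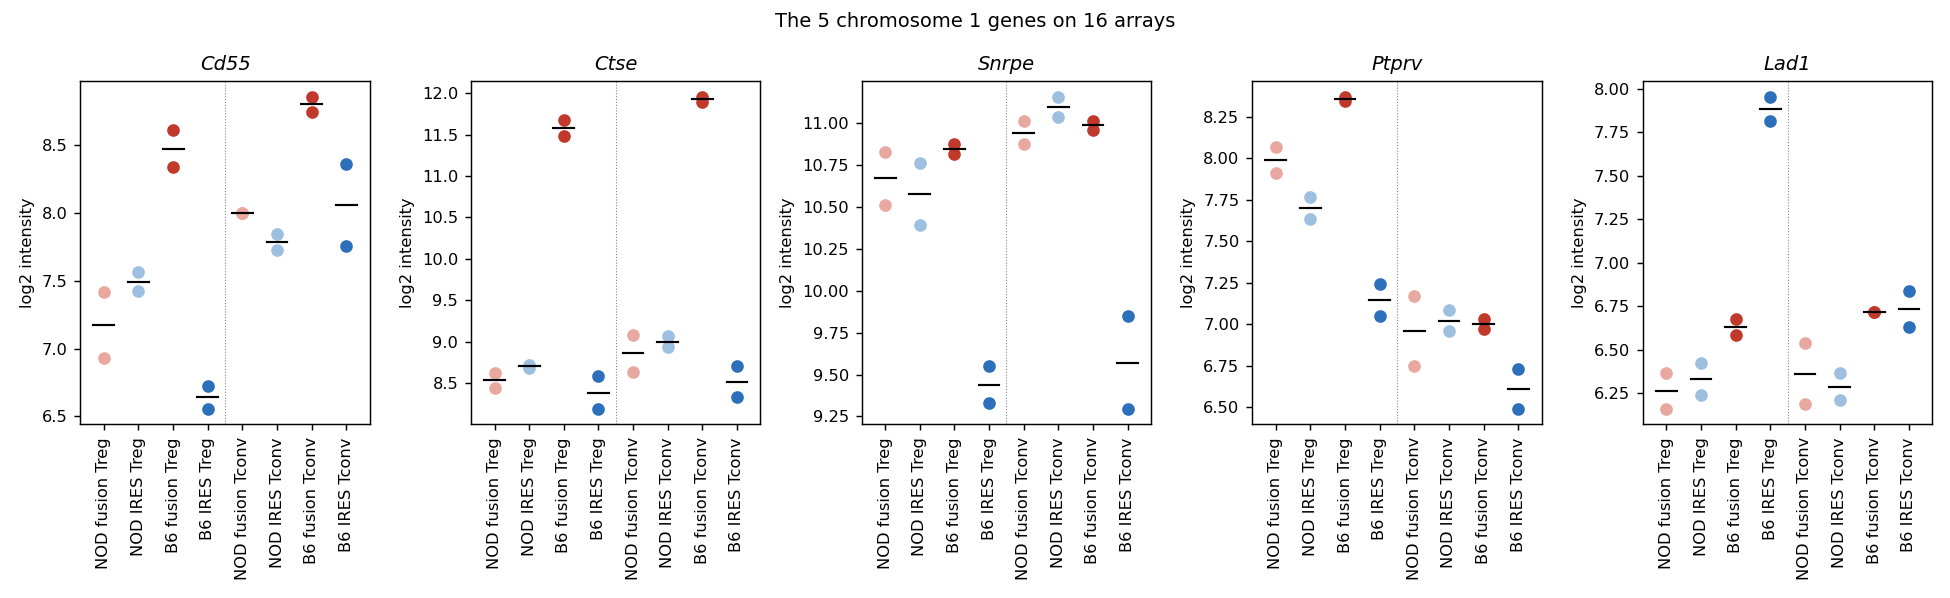
Log2 intensity of each of the 5 genes (y axis, with its own range in each panel) in the 8 groups (x axis, Treg left of the dotted line and Tconv right of it). Points are single arrays and bars are means of 2 arrays. Ctse stands at 11.49 to 11.96 on the 4 B6 fusion arrays, and Snrpe at 9.30 to 9.85 on the 4 B6 IRES arrays, apart from all other arrays.

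Cd55 varied with cell type, strain and line together. Cd55 had a log2 intensity of 8.34 and 8.61 in B6 fusion Treg, against 6.55 and 6.72 in B6 IRES Treg. In B6 Tconv it was 8.75 and 8.86 in the fusion line, against 7.76 and 8.36 in the IRES line. Fusion arrays lay above IRES arrays in both B6 cell types, although the 2 IRES Tconv arrays were far apart. The difference was 1.84 ± 0.18 in B6 Treg (SE, 3.57-fold) and 0.74 ± 0.18 in B6 Tconv (1.67-fold), and the Tconv value was 0.44 without B6 IRES Tconv replicate 1 and 1.04 without replicate 2.

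In NOD mice the Cd55 lines were closer and the direction differed between cell types. NOD fusion Treg had 6.93 and 7.42, against 7.42 and 7.56 in NOD IRES Treg, a difference of -0.32 ± 0.18 that was -0.08 without NOD fusion Treg replicate 1 and -0.56 without replicate 2. NOD fusion Tconv had 8.0 on both arrays, against 7.84 and 7.73 in NOD IRES Tconv, a difference of 0.22 ± 0.18. Neither pair of NOD groups overlapped, although in Treg the nearest fusion and IRES arrays were both at 7.42. Ranked by mean, Cd55 was highest in B6 fusion Tconv, followed by B6 fusion Treg, B6 IRES Tconv, NOD fusion Tconv, NOD IRES Tconv, NOD IRES Treg, NOD fusion Treg and last B6 IRES Treg. In that order B6 fusion Treg overlapped B6 IRES Tconv, which overlapped NOD fusion Tconv, and no other neighbours overlapped. Cd55b, the neighbouring close copy of Cd55, lay below the filter, at 4.64 to 5.80 on the 8 B6 arrays, and was not tested. Whether probes of either gene bind the transcript of the other was not tested.

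Ptprv was a Treg-high gene in every line, and the lines differed mainly in Treg. On the log2 scale it had 8.37 and 8.35 in B6 fusion Treg, against 7.24 and 7.05 in B6 IRES Treg, a difference of 1.21 ± 0.14 (2.32-fold). In B6 Tconv it was 7.03 and 6.97 in the fusion line, against 6.73 and 6.49 in the IRES line, a difference of 0.39 ± 0.14. The B6 fusion arrays were above the IRES arrays in both cell types. NOD fusion Treg had 8.07 and 7.91, against 7.76 and 7.64 in NOD IRES Treg, a difference of 0.29 ± 0.14 with no overlap. NOD fusion Tconv had 6.75 and 7.17, against 7.08 and 6.96 in NOD IRES Tconv, a difference of -0.06 ± 0.14 with overlap. The order by mean was B6 fusion Treg, NOD fusion Treg, NOD IRES Treg and B6 IRES Treg, then NOD IRES, B6 fusion, NOD fusion and B6 IRES Tconv. The first 3 stood apart from their neighbours, and from B6 IRES Treg to NOD fusion Tconv the arrays of each group overlapped those of the next. B6 IRES Treg lay above both B6 Tconv groups and overlapped NOD Tconv arrays.

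Ctse marked the B6 fusion line in both cell types. Its log2 intensity was 11.49 and 11.68 in B6 fusion Treg, against 8.58 and 8.19 in B6 IRES Treg. In Tconv it was 11.96 and 11.89 in the B6 fusion line, against 8.70 and 8.33 in the B6 IRES line. The 4 B6 fusion arrays lay between 11.49 and 11.96, and the other 12 arrays, of B6 IRES and both NOD lines, between 8.19 and 9.08, with no value in the gap. The difference was 3.20 ± 0.16 in B6 Treg (SE, 9.16-fold) and 3.41 ± 0.16 in B6 Tconv (10.6-fold).

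NOD fusion Treg had 8.62 and 8.44 for Ctse, against 8.69 and 8.72 in NOD IRES Treg, a difference of -0.17 ± 0.16 without overlap. NOD fusion Tconv had 9.08 and 8.63, against 9.06 and 8.93 in NOD IRES Tconv, a difference of -0.14 ± 0.16 with overlap. All 8 NOD arrays lay below the 4 B6 fusion arrays. In the order by mean, B6 fusion Tconv and B6 fusion Treg came first and did not overlap. NOD IRES Tconv, NOD fusion Tconv, NOD IRES Treg, NOD fusion Treg, B6 IRES Tconv and B6 IRES Treg followed, each overlapping the next except NOD IRES Treg and NOD fusion Treg.

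Snrpe marked the other B6 line, by a low level. Intensities were 10.87 and 10.81 in B6 fusion Treg, against 9.33 and 9.55 in B6 IRES Treg (log2). In B6 Tconv it was 10.96 and 11.01 in the fusion line, against 9.30 and 9.85 in the IRES line. The 4 B6 IRES arrays lay between 9.30 and 9.85 and the other 12 between 10.39 and 11.16. The difference was 1.40 ± 0.17 in B6 Treg and 1.41 ± 0.17 in B6 Tconv (2.65-fold and 2.67-fold), of nearly the same size in both cell types.

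NOD fusion Treg had 10.51 and 10.83 for Snrpe, against 10.39 and 10.76 in NOD IRES Treg, a difference of 0.09 ± 0.17. NOD fusion Tconv had 11.01 and 10.87, against 11.03 and 11.16 in NOD IRES Tconv, a difference of -0.15 ± 0.17. Both NOD lines were thus near the B6 fusion line. The order by mean was NOD IRES Tconv, B6 fusion Tconv, NOD fusion Tconv, B6 fusion Treg, NOD fusion Treg, NOD IRES Treg, B6 IRES Tconv and B6 IRES Treg. From B6 fusion Tconv to NOD IRES Treg each overlapped the next, NOD IRES Treg and B6 IRES Tconv were apart, and both B6 IRES groups overlapped.

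Lad1 was high in a single group. Its log2 intensity was 6.58 and 6.68 in B6 fusion Treg, against 7.96 and 7.82 in B6 IRES Treg, a difference of -1.26 ± 0.14 (2.39-fold lower in the fusion line). In B6 Tconv it was 6.71 and 6.72 in the fusion line, against 6.84 and 6.63 in the IRES line, a difference of -0.02 ± 0.14. The 2 B6 IRES Treg arrays stood above the other 14, which lay between 6.16 and 6.84. NOD fusion Treg had 6.37 and 6.16, against 6.42 and 6.24 in NOD IRES Treg. NOD fusion Tconv had 6.19 and 6.54, against 6.21 and 6.37 in NOD IRES Tconv. The differences in NOD, -0.07 ± 0.14 in Treg and 0.07 ± 0.14 in Tconv, were within the spread of the arrays. The 8 NOD arrays lay between 6.16 and 6.54, below the 6 remaining B6 arrays at 6.58 to 6.84. By mean, B6 IRES Treg came first and alone, B6 IRES Tconv overlapped B6 fusion Tconv, B6 fusion Treg stood next, and the 4 NOD groups came last and overlapped one another.

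**Figure D2:**
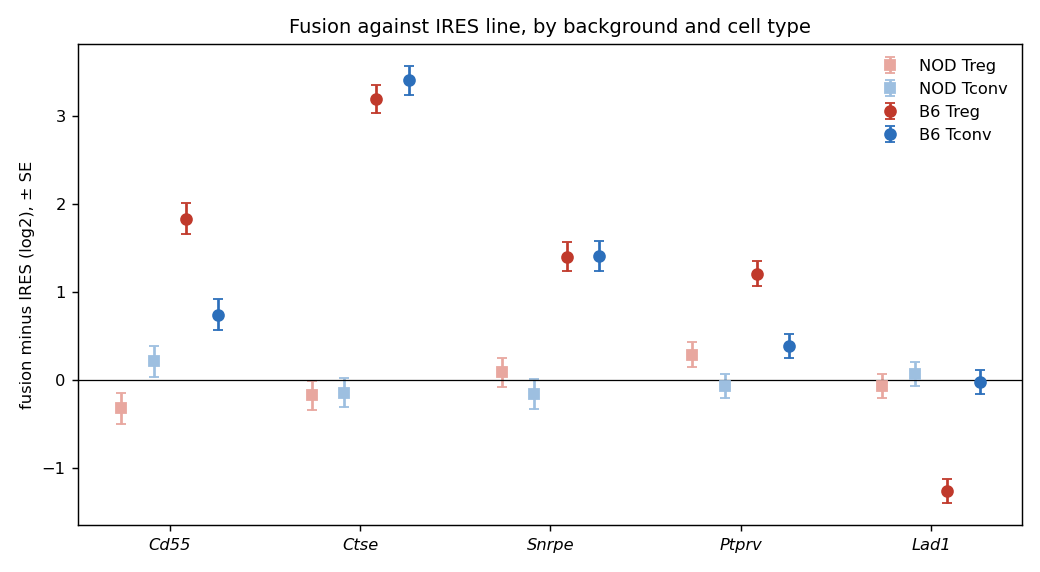
Fusion minus IRES difference (y axis, log2) of the 5 genes (x axis) in NOD (squares) and B6 mice (circles), with Treg in red tones and Tconv in blue tones and bars giving 1 standard error of the fit. The B6 Treg values run from -1.26 for Lad1 to 3.20 for Ctse, and all NOD values lie between -0.32 and 0.29.

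The line that stood apart was thus not the same for each gene. For Ctse it was the B6 fusion line and for Snrpe the B6 IRES line, in each case in both cell types. Across all 12798 tested genes, 6 (0.0469%) had their 4 B6 fusion arrays above all other 12, and Ctse was the only one with a gap over 0.5 on the log2 scale. The other 5 were Alg8, Camk2b, Chmp4b, Gimap4 and Ppox. In the B6 IRES line 54 genes (0.422%) had all 4 arrays below the other 12, and 2 had a gap over 0.5, Snrpe and Rab4a. The NOD lines also had genes with such a gap, 4 in the fusion line (H2-T10 and Kcnma1 above, Desi1 and Suclg2 below) and 3 in the IRES line (Vat1 above, H2-Q4 and Psmb9 below), so a line standing apart is not particular to B6. These counts, with the gap chosen after the values were seen, describe the arrays and use the same differences as the choice of genes.

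The neighbourhood on chromosome 1 was then examined, to see whether the genes around the 5 differed between the lines too. It held 114 tested genes, from 25 before Cd55 to 25 after Lad1, of which 109 were not members. The threshold was 0.05 on the adjusted p. Between fusion and IRES in B6 Treg 1 of these 109 (0.917%) was called, where 0.344% of all tested genes were. That gene, Il10, passed the filter only through the B6 fusion Treg arrays, where it was high, so this share is a description. In B6 Tconv 1 of 109 was called, where 0.0313% of all were. The median size of the difference among the 109 was 0.13 on the log2 scale in B6 Treg, against 0.12 over all tested genes. In B6 Tconv it was 0.07, also 0.07 over all. In NOD Treg and NOD Tconv 0 of 109 were called by limma, where 0.102% and 0.0469% of all genes were. At an unadjusted p under 0.05 there were 4 and 3 neighbours, beside 4.81% and 3.07% of all genes. The median neighbour in B6 differed by about as much as the median gene of the whole array, but medians leave out the larger differences. In B6 Treg 19 of 109 neighbours had an unadjusted p under 0.05, where 9.15% of all genes had. In B6 Tconv 6 of 109 had, where 1.64% of all genes had. Both B6 shares were thus above those of all genes, and this excess was not tested.

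The gene called in B6 Treg was Il10, which encodes the suppressive cytokine interleukin 10 and lies between Cd55 and Ctse. Its log2 intensity was 7.12 and 6.62 in B6 fusion Treg, against 5.62 and 5.15 in B6 IRES Treg, a difference of 1.49 ± 0.24. Fusion and IRES arrays did not overlap. Il10 passed the filter through its B6 fusion Treg arrays alone, so its call is a description and no p is given. The call was lost without B6 fusion Treg replicate 1 or B6 IRES Treg replicate 2, and with the filter at the 60th percentile the gene was not tested. In NOD Treg it had 5.46 and 5.76 in the fusion line, against 4.98 and 4.87 in the IRES line, a difference of 0.69 ± 0.24 (limma adjusted p = 0.779).

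The gene called in B6 Tconv was Rnpep, which encodes aminopeptidase B and lies between Ptprv and Lad1. It had 7.01 and 7.37 in B6 fusion Tconv, against 7.97 and 8.52 in B6 IRES Tconv, a difference of -1.06 ± 0.17 (limma adjusted p = 0.0305). In B6 Treg the arrays ran the same way, with 8.27 and 8.58 in the fusion line, against 8.90 and 8.77 in the IRES line, but this did not pass the test (-0.41 ± 0.17, adjusted p = 0.498). The Tconv call was lost without B6 fusion Tconv replicate 1 (adjusted p = 0.97) or B6 IRES Tconv replicate 2 (0.548), without either NOD fusion Tconv array (0.0549) or either B6 fusion Treg array (0.0711), with arrays centred on their medians (0.0531) and in a fit of these 2 groups alone (0.491).

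On all of chromosome 1, apart from the 5, 2 of 735 tested genes (0.272%) were called in B6 Treg, Il10 and Icos. The share was 0.305% of all genes apart from the 5. Il10 was among the tested genes only through its B6 fusion Treg arrays. Icos, a costimulatory receptor gene outside the neighbourhood, differed by 0.80 ± 0.16 (limma adjusted p = 0.0297), a call that was lost without any 1 of the 4 B6 Treg arrays (0.0601 to 0.387), with quantile normalization (0.0514) and with array weights (0.0822). Chromosome 9, chosen for comparison after its count was seen, had 7 of 708 called (0.989%). In B6 Tconv 1 of 735 on chromosome 1 (Rnpep, 0.136%) and 1 of 708 on chromosome 9 (Pxylp1, 0.141%) were called. Of all genes apart from the 5, 0.0156% were. Without the 5 genes chromosome 1 had a share of calls near that of all genes in B6 Treg. In B6 Tconv its share was above that of all genes, through Rnpep alone. The 5 were chosen on chromosome 1 for their differences, so leaving them out lowers its share by construction. Chromosome 9 lost no gene in this way. The shares are therefore a description and do not show whether chromosome 1 is like the other chromosomes.

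**Figure D3:**
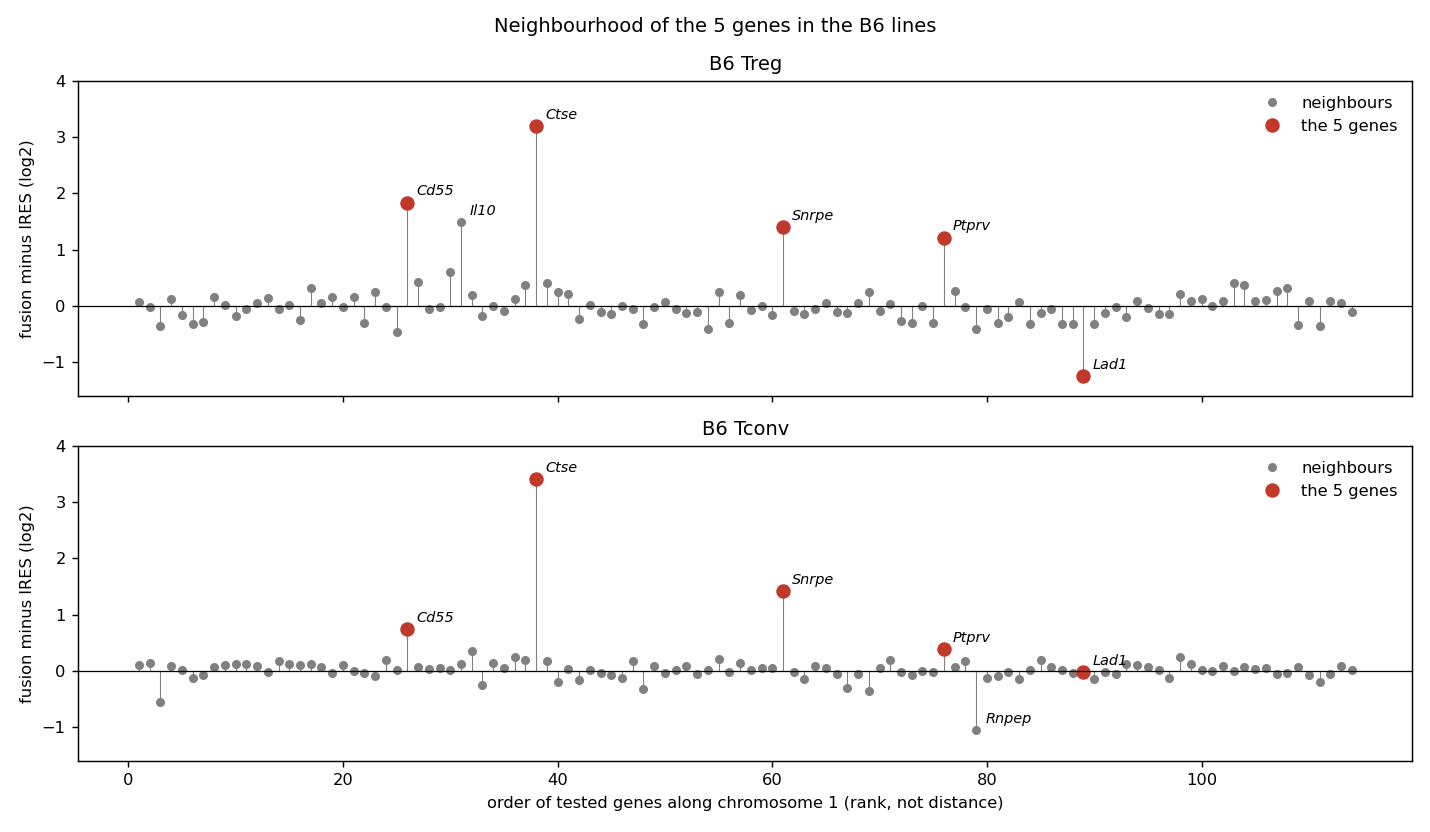
Fusion minus IRES difference (y axis, log2) of 114 tested genes in their order along chromosome 1 (x axis, rank and not distance) in B6 Treg (top) and B6 Tconv (bottom). Red points are the 5 genes, grey points their 109 neighbours, of which Il10 (1.49 in Treg) and Rnpep (-1.06 in Tconv) are named.

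Differences between cell types and between strains were averaged over the alleles. These averages are not the difference by which the genes were chosen, but the same B6 arrays enter them. Where an average rests on the B6 line that set a gene apart, it is given as a description with no p. Between Treg and Tconv, over the 4 lines, all 5 genes were past the threshold, where 28.6% of all tested genes were, and Lad1 was so through 1 line. Ptprv and Lad1 averaged higher in Treg, as did 16.7% of all genes at the threshold, and Cd55, Ctse and Snrpe lower, as did 11.9%. The split over all genes, 2138 higher and 1526 lower, was 1717 and 1714 with median centring and 2108 and 2197 with quantile normalization, and the directions of the 5 did not change under these settings. Among 24 tested markers of other cell types 3 were called higher and 5 lower in Treg. The summed intensity of CD8 T and NK cell markers, with gamma-delta ones, was 893 to 1196 on Treg arrays, against 1264 to 1651 on Tconv arrays, and their part in these differences was not tested.

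Ptprv had the largest Treg minus Tconv difference of the 5, 0.90 ± 0.07 (limma adjusted p = 6.70e-09). Treg arrays lay above Tconv arrays in 4 of 4 lines, by 1.03 in NOD fusion, 0.68 in NOD IRES, 1.36 in B6 fusion and 0.54 in B6 IRES mice. Cd55 was lower in Treg (-0.72 ± 0.09, adjusted p = 3.3e-06), with Treg arrays below Tconv arrays in 4 of 4 lines. Its difference was -1.42 in B6 IRES mice and -0.29 to -0.82 in the other lines.

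Ctse and Snrpe had smaller differences, both -0.27 ± 0.08, with adjusted p of 0.0159 for Ctse and 0.0219 for Snrpe by limma. Treg arrays were below Tconv arrays in 3 of 4 lines for each and overlapped in B6 IRES mice. Both calls were lost without NOD fusion Tconv replicate 1, the array with more dendritic cell and B cell signal (adjusted p = 0.0515 for Ctse and 0.0516 for Snrpe). The Ctse call was also lost without B6 IRES Treg replicate 2 (0.0529). The Snrpe call was also lost without B6 IRES Tconv replicate 2 (0.0619), NOD fusion Treg replicate 1 (0.0626), B6 IRES Treg replicate 1 (0.0618) or NOD IRES Treg replicate 1 (0.0681). Lad1 averaged 0.25 ± 0.07 higher in Treg, a mean that joined 1.15 in B6 IRES mice with -0.09 in B6 fusion, -0.10 in NOD fusion and 0.04 in NOD IRES mice. For Lad1 the average over lines therefore stands for 1 line.

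Between NOD and B6, as the mean of both alleles, 3 of 5 genes were past the threshold in Treg, where 21% of all genes were, and 4 of 5 in Tconv, where 15.9% were. Of these 7, the 4 of Ctse and Snrpe rest on 1 B6 line. Those of Lad1 in Treg and Cd55 in Tconv lay mainly in the B6 line that set the gene apart. The counts are therefore no separate evidence. Among the 24 markers of other cell types 2 were called higher and 5 lower in NOD Treg, and 1 higher and 1 lower in NOD Tconv. The summed intensity of the myeloid list was 433 to 491 on NOD Treg arrays, against 554 to 574 on B6 Treg arrays, and its part in these differences was not tested. Lad1 was lower in NOD than in B6 cells. Its difference in Treg, -0.96 ± 0.10, rested mainly on B6 IRES Treg, the group that set Lad1 apart, and is a description. In Tconv the difference was -0.40 ± 0.10 (limma adjusted p = 0.0104). NOD arrays lay below B6 arrays in each of the 4 pairs of groups, with differences of -0.37 in fusion Treg, -0.35 in fusion Tconv, -1.56 in IRES Treg and -0.45 in IRES Tconv. The Tconv call was lost without B6 IRES Tconv replicate 1 (adjusted p = 0.052) or NOD IRES Tconv replicate 1 (0.0556). Of the 5 genes only Lad1 had NOD arrays on the same side of B6 arrays, without overlap, in all 4 pairs.

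For Ctse and Snrpe the strain means reflected 1 B6 line. Ctse averaged -1.37 ± 0.12 in Treg and -1.29 ± 0.12 in Tconv. Within the fusion line the difference was -3.05 in Treg and -3.07 in Tconv, whereas within the IRES line NOD arrays were above B6 arrays, by 0.32 in Treg and 0.48 in Tconv. Snrpe averaged 0.48 ± 0.12 in Treg and 0.74 ± 0.12 in Tconv. It differed by 1.14 in Treg and 1.53 in Tconv within the IRES line, and by -0.17 in Treg and -0.04 in Tconv, with overlap, within the fusion line.

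Cd55 averaged lower in NOD than in B6 Tconv, with a difference of -0.54 ± 0.12 that is given as a description. In Treg it did not pass (-0.22 ± 0.12, limma adjusted p = 0.206). In Tconv the difference was -0.80 in the fusion line, without overlap, and -0.28 in the IRES line, with overlap, so that it lay mainly in the line where B6 was high. Within Treg it was -1.30 in the fusion line and 0.85 in the IRES line, so that the mean of the lines joined opposite directions. Ptprv did not pass in Treg (0.09 ± 0.10, adjusted p = 0.513) or in Tconv (0.18 ± 0.10, adjusted p = 0.191). The difference in strain effect between Treg and Tconv passed for 0 of 5 genes by limma, where 0.82% of all genes did. At an unadjusted p under 0.05 there was 1 of 5, beside 9.9% of all genes. The Lad1 value, -0.56 ± 0.14, rested mainly on B6 IRES Treg and is given as a description.

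**Figure D4:**
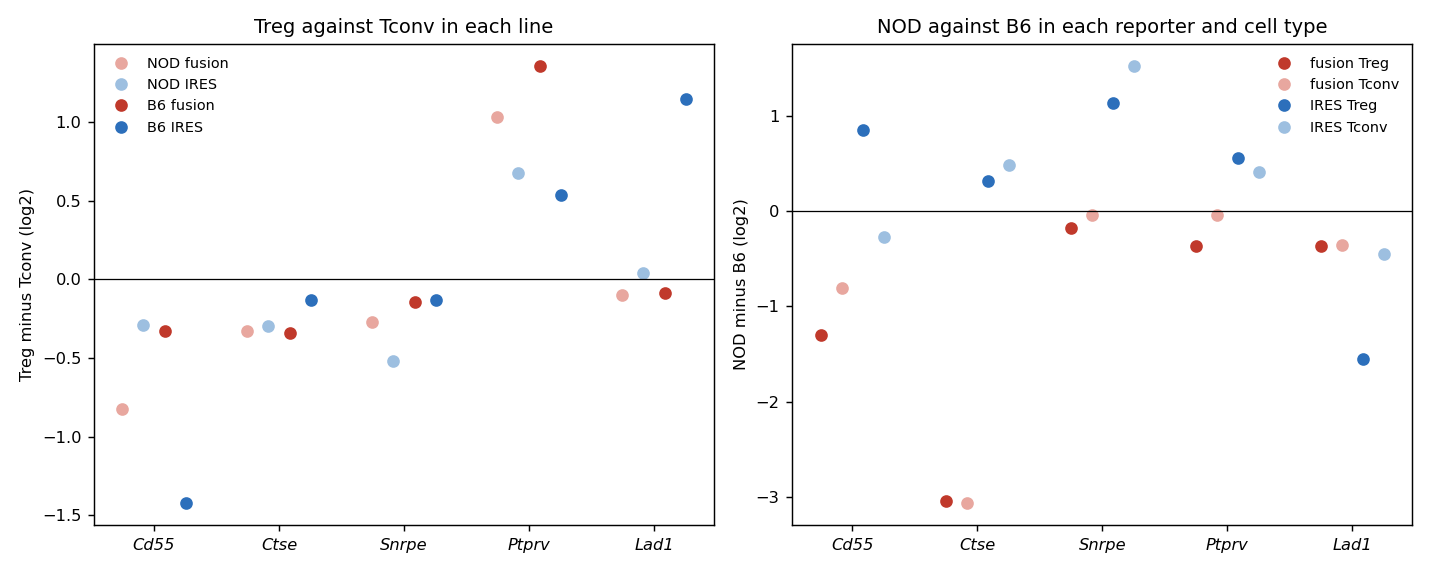
Differences of the 5 genes (y axis, log2; single points are differences between means of 2 arrays). Left, Treg minus Tconv in each of the 4 lines. Right, NOD minus B6 within each reporter allele and cell type, where the Ctse points lie near -3 for the fusion line (-3.05 and -3.07) and above 0 for the IRES line.

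Genes related to the 5 by function were then set beside them. Of cathepsins, related proteases and their inhibitors 15 of 18 listed genes were tested, and of complement regulators and receptors 4 of 18. Of Sm and LSm proteins 17 of 19 were tested, and of receptor-type phosphatases, with the associated protein Ptprcap, 11 of 19. By limma 0 genes of any list were called between fusion and IRES in B6 Treg, B6 Tconv, NOD Treg or NOD Tconv. Of all genes 0.344%, 0.0313%, 0.102% and 0.0469% were, so 0 calls among 47 genes say little about them. At an unadjusted p under 0.05 there were 6, 0, 1 and 3 of the 47 tested genes in these comparisons. The shares of all genes were 9.15%, 1.64%, 4.81% and 3.07%. The list medians lay between -0.10 and 0.06 in these 4 comparisons.

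Between the cell types members of 3 of the 4 lists were called. Of the 15 tested protease and inhibitor genes 8 were higher and 1 lower in Treg, beside 16.7% higher and 11.9% lower of all genes. The list median was 0.29, against -0.01 over all genes. Cst7, which encodes the protease inhibitor cystatin F, differed by 1.91 ± 0.13 (limma adjusted p = 9.58e-10), and Lgmn, which encodes the endosomal protease legumain, by 0.92 ± 0.08 (adjusted p = 3.06e-08), in the direction opposite to Ctse. Of the 11 tested genes of the phosphatase list 3 were higher and 2 lower in Treg, beside the same shares. Ptprj, a receptor phosphatase of blood cells, differed by 2.31 ± 0.10 (limma adjusted p = 3.63e-12). Another of the 3, Ptprcap (0.33 ± 0.06, limma adjusted p = 0.000202), encodes a protein that associates with a receptor phosphatase and is not one itself. Of the 17 tested Sm and LSm genes limma called 1, beside 28.6% of all genes. This was Snrpd3, another Sm core gene, lower in Treg (-0.54 ± 0.08, adjusted p = 2.29e-05). At an unadjusted p under 0.05 there was also 1 of 17, beside 37.2% of all genes. Of the 4 complement genes limma called 0, also at an unadjusted p under 0.05, beside the same shares.

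Between NOD and B6 Treg 9 of 17 Sm and LSm genes were lower and 0 higher, where 9.82% of all genes were lower, with a list median of -0.29 against -0.02 over all genes, whereas Snrpe, low in the B6 IRES line, averaged higher. The marker values given above for NOD and B6 Treg apply here too. Snrpd2 differed by -0.65 ± 0.10 (limma adjusted p = 0.000243). In Tconv 0 of the 17 were called, also at an unadjusted p under 0.05, beside 15.9% and 34.8% of all genes. Among the 15 protease and inhibitor genes 3 were higher and 4 lower in NOD Treg, where 21% of all genes were called. The inhibitor gene Cst7 differed by -1.40 ± 0.18 (limma adjusted p = 3.14e-05). Cd46, like Cd55 a complement regulator gene, was higher in NOD, by 0.96 ± 0.12 in Treg (limma adjusted p = 1.57e-05) and 0.71 ± 0.12 in Tconv (0.000582). Cd55 averaged lower in NOD Tconv, mainly in the fusion line, which is a description only.

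The 5 genes were not a single pattern over the 16 arrays. Pearson correlations between pairs of them, given as a description of arrays that share groups, ran from -0.742 (Snrpe with Lad1) through 0.461 (Ctse with Snrpe) to 0.760 (Cd55 with Ctse). The genes most like each over the 16 arrays were Hnrnpd (0.891), Trmt6 (0.841) and Usp38 (0.839) for Cd55 and Ppox (0.782), Cd55 and Cdk5rap1 (0.758) for Ctse. They were Rab4a (0.893), Tent5a (0.859) and Ppp1r15b (0.853) for Snrpe. For Ptprv they were Slc43a2 (0.946), Matk (0.941) and Lztfl1 (0.941), and for Lad1 Serpina11 (0.861), Dscam (0.856) and Plvap (0.851). Of these 15 places 3 went to genes of chromosome 1, Ppox, Cd55 and Ppp1r15b, where 740 of all 12798 tested genes lie on that chromosome. Cd55 is itself among the 5.

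Rab4a, on chromosome 8, encodes a small GTPase of early endosomes and had the profile nearest to that of Snrpe. Its 4 B6 IRES arrays lay between 6.54 and 7.12, below the other 12 at 7.74 to 8.26. Its fusion minus IRES difference in B6 Treg was 0.95 ± 0.16. For Matk, which encodes a tyrosine kinase that restrains Src family kinases, and for Lztfl1 this difference was 0.69 ± 0.14 and 0.62 ± 0.12, and Treg minus Tconv was 0.73 ± 0.07 for Matk and 0.51 ± 0.06 for Lztfl1. These genes were picked for being like Snrpe or Ptprv on the same arrays, so the values are a description.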

How the data were processed

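Probe set intensities on a linear scale, deposited by the authors, were made with Affymetrix Power Tools and RMA, per the submitters' processing notes. Versions and genome build were not given in the sources used here. Each gene took its probe set with the highest mean, and values were turned into log2 without a pseudocount. Genes above the 40th percentile (log2 6.06) on at least 2 arrays were tested. Means of the 8 groups were estimated from all 16 arrays in limma 3.58.1 under R 4.3.3 (8 residual and 9.80 prior degrees of freedom), two-sided, with Benjamini-Hochberg adjustment over 12798 genes and a threshold of 0.05. The fit was tested on simulated data. Tables and plots used Python 3.11.15, numpy 2.4.6, pandas 2.3.3 and matplotlib 3.10.9. RefSeq tables gave gene order and promoters, and protein sequences were not used here. Precision is limited by the number of arrays.

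The 5 genes, the lists and the tests were chosen with earlier results of these data known. Named genes were the 5, Foxp3, called neighbours, the 3 genes most correlated with each of the 5, and up to 4 called genes per list, of which the text leaves out some. Icos, Pxylp1, the genes counted by line, Cd55b and Nnt were named after their values were seen. Alternatives were no filter, a 60th percentile filter, median centring, quantile normalization, array weights, trend and robust variances, averaging of a gene's probe sets, fits without the groups not compared, replicate blocks and leaving out each array.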

Additional observations from a re-analysis of the deposited data

Results flagged for a closer look

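In these results every array of one comparison moved one way and every array of its counterpart the other way, and the differences between the 2 comparisons were not tested.

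Fusion minus IRES for Cd55 was -0.32 in NOD Treg and 1.84 in B6 Treg, and the NOD Treg value was also opposite to 0.22 in NOD Tconv. The NOD Treg value was -0.08 without NOD fusion Treg replicate 1 and -0.56 without replicate 2. For Ctse it was -0.17 in NOD Treg and 3.20 in B6 Treg. For Snrpe it was -0.15 in NOD Tconv and 1.41 in B6 Tconv. NOD minus B6 for Cd55 was -1.30 in fusion Treg and 0.85 in IRES Treg. For Ctse it was -3.05 in fusion Treg and 0.32 in IRES Treg, and -3.07 in fusion Tconv and 0.48 in IRES Tconv. For Ptprv it was -0.37 in fusion Treg and 0.56 in IRES Treg. Treg minus Tconv for Lad1 was -0.086 in B6 fusion mice and 1.15 in B6 IRES mice.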

How the results depend on the processing

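No called result changed direction. Fusion minus IRES in NOD Tconv ran through 0 with an array left out for Ctse (-0.36 to 0.09), Ptprv (-0.27 to 0.15) and Lad1 (-0.10 to 0.25). Leaving out each array in turn moved the fusion minus IRES difference of Cd55 in B6 Tconv between 0.44 and 1.04, of Ctse in B6 Treg between 3.0 and 3.39 and of Snrpe in B6 Tconv between 1.14 and 1.69. Treg minus Tconv ran from -0.33 to -0.22 for Ctse (adjusted p up to 0.0529) and from -0.33 to -0.20 for Snrpe (up to 0.0681), and NOD minus B6 in Tconv from -0.49 to -0.31 for Lad1 (up to 0.0556). Genes called over all genes for fusion minus IRES in B6 Treg numbered 44, with 20 under array weights, 168 in a fit of only the groups compared and 11 to 49 with an array left out. In B6 Tconv they numbered 4, with 2 in a fit of only the groups compared and 2 to 5 with an array left out. For NOD minus B6 the counts were 2690 in Treg (1597 to 3063) and 2033 in Tconv (841 to 2365). Neighbours called in B6 Treg numbered 1, with 0 under the 60th percentile filter, which left out Il10, 2 (Fcmr and Il10) in a fit of only the groups compared and 0 to 1 with an array left out. In B6 Tconv they numbered 1, with 0 under median centring, 0 in a fit of only the groups compared and 0 to 1 with an array left out. The causes were not tested. The labels do not say that replicate numbers mark shared mice or days. Deviations of same-numbered arrays correlated above 0.1 in 16 of 28 pairs of groups (-0.371 to 0.465) and in 3 of 4 pairs of Treg and Tconv of 1 line (0.0803 to 0.398). Since not every pair did, the numbers were not taken as pairing, though some arrays may share mice. With the number as a replicate block no call of the 5 genes changed. In that fit 57 genes were called in B6 Treg, 4 in B6 Tconv and 3981 for Treg minus Tconv. For NOD minus B6 it called 3204 in Treg and 2655 in Tconv. The block is a single term over all 16 arrays. It does not model Treg and Tconv of the same mice, so the effect of such pairing was not tested. Treg minus Tconv uses all groups, so no smaller fit was run for it. No scanner files were used, so background correction was not varied.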

Other observations

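Nnt, on chromosome 13, encodes the mitochondrial nicotinamide nucleotide transhydrogenase and is known to carry a deletion in the C57BL/6J substrain and not in C57BL/6N. The labels give the background only as B6. It was looked at after its profile had been seen to resemble that of Snrpe (Pearson r = 0.833 over 16 arrays). Its log2 intensity was 8.38 and 8.65 in B6 fusion Treg, against 7.98 and 7.91 in B6 IRES Treg. In B6 Tconv it was 8.30 and 8.48 in the fusion line, against 7.69 and 7.90 in the IRES line. The 4 B6 IRES arrays thus lay at 7.69 to 7.98 and the other 12, NOD included, at 8.30 to 8.75, without overlap. Nnt was chosen for this profile, and neither B6 difference passed the test (0.57 ± 0.13, limma adjusted p = 0.0963 in Treg, and 0.59 ± 0.13, adjusted p = 0.431 in Tconv).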
